A study of Homo sapiens with 78 samples.

Results

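Single cells of the human melanoma line A375 were ordered by how much RNA they held of 8 genes of cell division, and the upper-scoring cells of each library kit were compared with the lower-scoring ones. The score of a cell was the summed abundance of MKI67, TOP2A, CCNA2, CDK1, BUB1, CENPF, KIF11 and ANLN in TPM, the length-normalised unit of the deposited tables. A375 wells with at least 200000 estimated counts and under 10% of them on nuclear copies of mitochondrial genes were kept, which left 31 of 42 A375 wells among the 78 samples of the series. The cells were split at the median score within each of the 2 library kits, the median well of an odd number going to the low group. There were 7 high and 8 low wells for kit #634413 and 8 high and 8 low wells for kit #634444.

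The study sorted single A375 and Jurkat cells by flow cytometry into wells and made total RNA libraries with the reagents of 2 kits. These were a SMARTer Stranded kit for picogram inputs of total RNA (v2 Pico, #634413) and the SMART-Seq Stranded Kit (#634444). A375 is an established line from a melanoma, and Jurkat is an established line from a T cell leukaemia. The A375 cells were stained with an antibody to CD47, gated as live by 7-AAD and sorted into PBS, and neither the labels nor the study's methods describe a drug treatment or a synchronisation of the cells. High and low cells of a kit therefore shared line and sorting protocol, and they were split on the score alone. The sources do not say whether they came from the same sort, and the groups also differed somewhat in depth, as given below. Each sample is 1 cell, and nothing in the labels says from how many cultures the cells came, so each group of cells counts as 1 sample. For this reason no statistical test is given between groups, and values are given as means with the SD over wells, which measures the spread between cells.

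A dividing cell copies its DNA in S phase, and in G2 and M phases it makes the proteins that condense, attach and separate the chromosomes. Genes of S phase are known targets of E2F factors, while many genes of G2 and M phases are controlled by the DREAM complex, B-MYB and FOXM1 through an element called CHR, often near CCAAT boxes bound by NF-Y. Histone mRNAs of the replication-dependent type are made in S phase and end in a stem loop in place of a poly(A) tail, so they are caught by total RNA methods.

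The promoters of 5 genes that were higher in the high group are shown because they hold these elements side by side with the difference in RNA. They are 3 mitosis genes and 2 replication genes, those with the largest difference relative to the spread over wells whose promoter held CCAAT with TTTGAA or TTTAAA, or an E2F-type motif. Each runs 5′ to 3′ on the gene's strand from 250 bases before to 50 bases after the RefSeq start site on GRCh38.p14. Capitals mark the NF-Y box CCAAT, the CHR-type hexamers TTTGAA or TTTAAA, and the E2F-type octamers TTTCGCGC or TTTGGCGC. Both strands were searched. On the opposite strand the NF-Y box reads ATTGG, and the first hexamer reads TTCAAA.
NCAPH, chr2:96335516-96335815, plus strand: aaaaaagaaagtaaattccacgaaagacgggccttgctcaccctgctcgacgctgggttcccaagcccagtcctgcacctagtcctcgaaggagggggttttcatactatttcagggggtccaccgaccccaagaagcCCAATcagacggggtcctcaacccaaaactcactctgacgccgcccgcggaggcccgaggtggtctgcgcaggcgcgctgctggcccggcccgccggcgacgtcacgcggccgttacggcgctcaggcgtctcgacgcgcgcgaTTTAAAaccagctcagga
ASPM, chr1:197146620-197146919, minus strand: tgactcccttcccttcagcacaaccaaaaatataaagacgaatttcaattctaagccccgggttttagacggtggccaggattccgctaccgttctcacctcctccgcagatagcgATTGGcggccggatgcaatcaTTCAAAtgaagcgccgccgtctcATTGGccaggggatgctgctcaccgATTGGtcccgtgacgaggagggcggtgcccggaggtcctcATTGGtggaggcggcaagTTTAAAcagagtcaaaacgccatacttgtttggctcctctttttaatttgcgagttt
HMMR, chr5:163460382-163460681, plus strand: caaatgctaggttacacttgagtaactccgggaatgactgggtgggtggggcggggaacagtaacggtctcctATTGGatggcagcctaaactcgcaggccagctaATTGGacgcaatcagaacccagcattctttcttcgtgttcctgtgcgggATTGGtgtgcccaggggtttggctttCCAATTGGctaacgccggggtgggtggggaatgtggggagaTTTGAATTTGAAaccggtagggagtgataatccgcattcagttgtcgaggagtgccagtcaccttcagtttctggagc
EXO1, chr1:241847954-241848253, plus strand: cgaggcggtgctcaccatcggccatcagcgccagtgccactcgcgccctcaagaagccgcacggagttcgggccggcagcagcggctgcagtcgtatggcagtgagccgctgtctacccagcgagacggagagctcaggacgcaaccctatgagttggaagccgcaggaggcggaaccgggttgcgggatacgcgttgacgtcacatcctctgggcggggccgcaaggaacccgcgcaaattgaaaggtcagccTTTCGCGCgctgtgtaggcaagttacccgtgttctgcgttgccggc
DTL, chr1:212035498-212035797, plus strand: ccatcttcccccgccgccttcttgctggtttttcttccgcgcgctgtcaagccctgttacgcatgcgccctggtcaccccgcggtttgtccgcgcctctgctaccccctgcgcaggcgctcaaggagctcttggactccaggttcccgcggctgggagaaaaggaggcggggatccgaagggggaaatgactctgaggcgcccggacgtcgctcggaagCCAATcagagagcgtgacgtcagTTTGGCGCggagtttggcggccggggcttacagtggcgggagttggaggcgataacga

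Promoters of the mitosis genes and of the replication genes differed in these letters. TTTGAA or TTTAAA stood on either strand in 63 of 85 promoters of the mitosis lists (74.1%), in 3 of 46 of the replication list (6.52%) and in 24.3% of all 27305 promoters of the same length. In ASPM and HMMR such a match began 7 bases and 22 bases before the start site. TTTCGCGC or TTTGGCGC stood in 13 of 46 replication promoters (28.3%), in 4 of 85 mitosis promoters (4.71%) and in 1.18% of all promoters. CCAAT was held by 68.2% of mitosis, 54.3% of replication and 35.7% of all promoters, and both CCAAT and a CHR-type hexamer were held by 52.9%, 4.35% and 9.49% of them. Promoters were matched for 85 of 100 mitosis genes and 46 of 55 replication genes. Motifs may share bases, as CCAAT does on both strands in HMMR, and a match is a description of the sequence only.

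Kept A375 wells held 327162 to 2567265 estimated counts, and the highest total among the 9 wells left out for depth was 156660. A further 2 deep wells were left out for copies of mitochondrial genes, at 27.2% or more of their counts. High wells were somewhat deeper than low wells, with a mean of 1287200 ± 589809 against 1035050 ± 614570 counts for kit #634413 and 1078000 ± 720497 against 761653 ± 398844 for kit #634444 (SD). When each well was thinned to 200000 counts, 8150 ± 687 against 7633 ± 457 genes had at least 3 counts for the first kit and 8437 ± 670 against 8263 ± 474 for the second. The difference in depth moved with the score. Among wells of at least 500000 counts, 347 of 11095 genes were higher (3.13%) and 203 lower (1.83%) by the rule given below. Of the 86 mitosis genes measured in these wells, 63 were higher. Ribosomal RNA took 6.97% to 15.5% of counts except in 1 high well, well 10 of kit #634444, at 27.5%. This class held the gene types rRNA, rRNA pseudogene and mitochondrial rRNA and the rDNA unit, in kallisto estimated counts. The study reported a much lower ribosomal share for A375 cells, of reads mapped with STAR, which is a different measure. The T cell marker genes summed to 0 to 65.7 CPM (counts scaled to the gene total of each well) in the kept A375 wells and to 1930 to 5408 CPM in Jurkat wells, while SOX10, a factor of melanocytic cells, was counted in all 31 kept A375 wells. The pigment genes PMEL, MLANA, TYR and DCT had means of at most 8.06 CPM in either group.

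The wells covered a range of scores from 1.63 to 1052 TPM with no clean break at the median. For kit #634413 the low group had a lowest, median and highest score of 1.63, 14 and 35.6 TPM and the high group of 50.2, 275 and 463 TPM. For kit #634444 the scores were 2.55, 13.1 and 27.80 TPM in the low group and 27.97, 145 and 1052 TPM in the high group. The last low and the first high well of the second kit were thus almost equal. Above the median, both kits had a gap at a like level, from 50.2 to 124 TPM and from 50.6 to 125 TPM, beside others, and 11 wells were above 100 TPM. Wells 4 and 19 of kit #634444 were the only kept A375 wells above 1000 TPM. The comparison is between mixed groups, of which the high one holds 4 wells under 100 TPM.

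**Figure D1:**
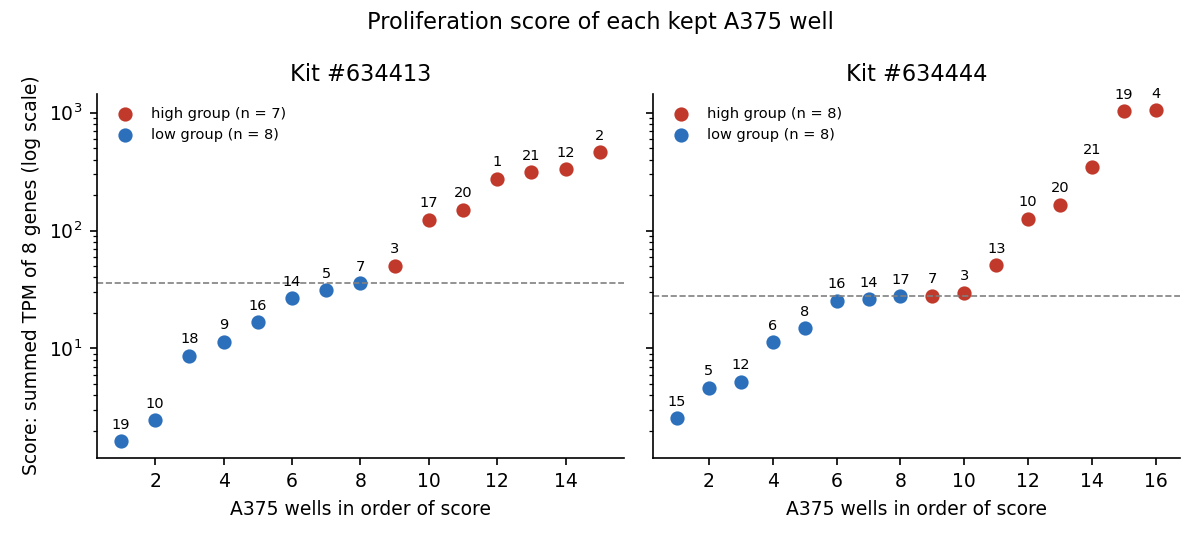
Proliferation score of each kept A375 well on a log scale in TPM, in order of score, for kit #634413 (left, 15 wells) and kit #634444 (right, 16 wells). Red points are the high group, blue points the low group, the dashed line is the median and the numbers are the wells; 6 and 5 wells lie above 100 TPM.

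The score genes are what the groups were selected on, and their values describe the selection. MKI67, which codes for the Ki-67 protein of dividing cells, had a mean of 428 ± 481 CPM in the high and 22.7 ± 23.5 CPM in the low group for kit #634413 and of 391.5 ± 475 and 10.6 ± 20.1 CPM for kit #634444. It had counts in 5 of 7 and 6 of 8 high wells and in 5 of 8 and 2 of 8 low wells, so not every high well was positive for it. Values below keep this order, high then low group, first for kit #634413 and then for kit #634444. TOP2A, the topoisomerase that untangles replicated DNA, had means of 296 and 6.83 CPM and of 643 and 1.79 CPM. CDK1, the kinase that drives entry into mitosis, had means of 29.4 and 5.59 CPM and of 72.6 and 1.91 CPM, and was counted in 1 of 8 low wells for each kit. CENPF, a kinetochore protein, was the only score gene with counts in all 15 high wells.

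Outside the score, the genes that were higher in high cells included many genes of mitosis. The score is itself made of genes of cell division, and the lists were chosen with earlier results of these data known. Values of the mitosis lists therefore describe the split and are not independent of it. Genes were counted as higher or lower where the mean CPM of the groups differed at least 2-fold in the same direction for both kits, among the 11071 genes with a mean of at least 10 CPM over the kept wells. By this rule 235 genes (2.12%) were higher and 142 genes (1.28%) were lower in the high group. Of the 235 higher genes, 53 belonged to the mitosis lists, which hold 83 of the 11071 measured genes, and 89 to any of the lists used here. Of the 142 lower genes, SPRY4 and S100B belonged to a list. The share of all measured genes that belong to any list was not computed, so the 89 and the 2 are counts only. With gene-level TPM in place of CPM the counts were 266 higher and 258 lower, so the share of higher among called genes went from 62.3% to 50.8%. For each kit alone, 1154 genes were at least 2-fold higher and 1047 lower for kit #634413 and 840 higher and 672 lower for kit #634444, many more than the genes shared by both kits.

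No gene separated the groups well by well for both kits. The wells of the high group were all above those of the low group for 0 genes (0%) and all below for 0 genes (0%). For kit #634413 alone, 3 of the 11071 genes (RAB38, ATAD5 and CEP43) had all high wells above all low wells and 1 (ARAP1) had them all below. For kit #634444 alone, 1 of the 11071 genes (TUFMP1) had all high wells above and 0 had them all below. The named genes were picked out after their values were seen, and how many a random order of wells would separate was not computed. Of them CEP43, a centrosome protein, was higher by the 2-fold rule, with means of 51.3 and 7.30 CPM and of 37.4 and 12.9 CPM, while RAB38 was at 13.1 CPM in the high and 26.9 CPM in the low group for kit #634444.

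Genes of mitosis formed 5 lists with 100 genes, of which 83 were measured, 53 were higher, 0 were lower and 78 had a ratio above 1 for both kits. Their median log2 ratio was 2.01 (1.68 for kit #634413 and 2.29 for kit #634444), beside 0.00 over all measured genes. Over all 100 genes with counts in any well the median was 2.34. A member at low level passes the limit of 10 CPM through the high group alone, so the count among measured members is a description and the ratio over members with counts is given beside it. Without wells 4 and 19 of kit #634444 the count of higher mitosis genes was 32 of 71, against 43 without well 4 and 46 without well 19.

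**Figure D2:**
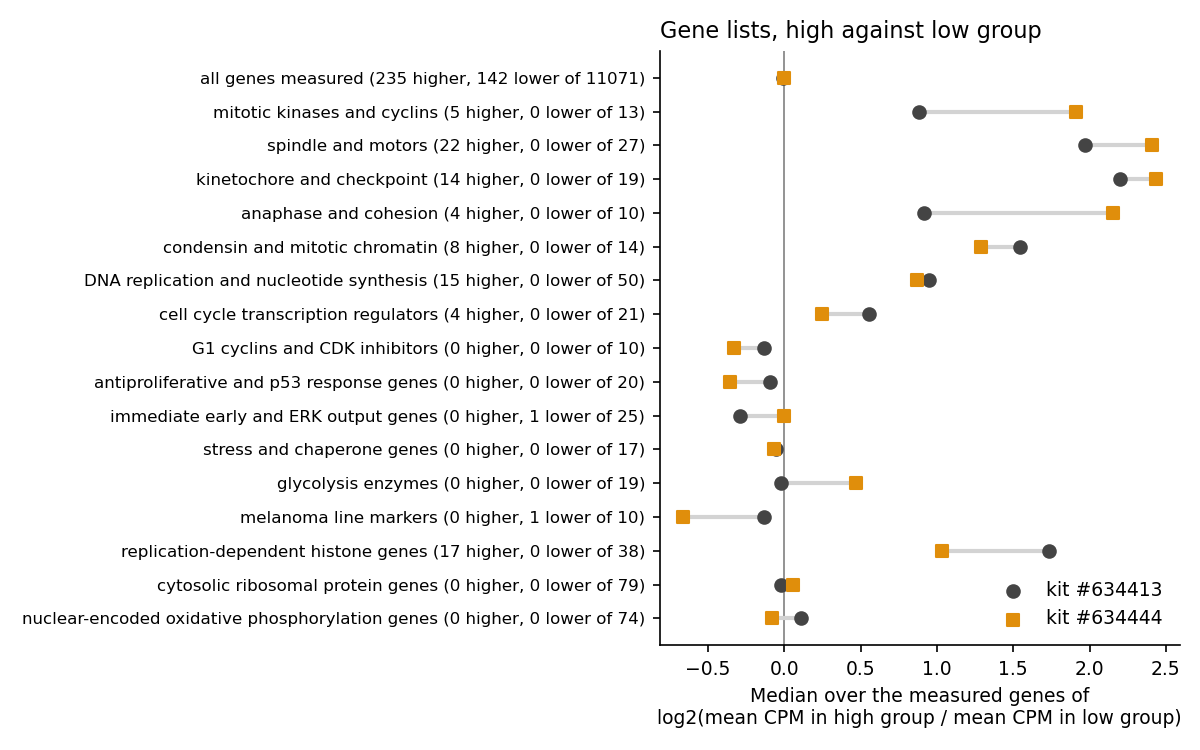
Median over the measured genes of each list of the log2 ratio of mean CPM in the high group to that in the low group, for kit #634413 (circles) and kit #634444 (squares), with the counts of higher and lower genes in the labels. The 5 mitosis lists lie between 0.88 and 2.44, the replication list at 0.95 and 0.87, the histone genes at 1.73 and 1.03, and the other lists between −0.66 and 0.56.

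Spindle proteins and motors had the most members past the rule, with 22 of 27 measured genes higher and a median log2 ratio of 2.84, or 3.30 over all 30 members with counts. ASPM, which focuses the poles of the spindle, ranged over 0, 193 and 443 CPM (lowest, median and highest well) in the high group and 0, 0 and 96.7 CPM in the low group for kit #634413, and over 0, 47.4 and 2057 CPM and 0, 0 and 3.59 CPM for kit #634444. The groups overlapped at 0 but the median well was at 0 in the low group of each kit. In sums of counts over wells, ASPM had 1491 (95% Poisson interval 1416 to 1569) in the high and 143 (120 to 168) in the low group for kit #634413 and 4267 (4140 to 4397) and 5 (1.62 to 11.7) for kit #634444. These intervals cover counting error only, because reads amplified by PCR without molecular identifiers are not independent molecules.

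TACC3, which stabilises spindle microtubules, overlapped less than ASPM, with wells from 10 to 58.1 CPM in the high and from 0 to 24.2 CPM in the low group for kit #634413. It was counted in all 15 high wells and in 1 of 8 and 5 of 8 low wells. Its means were 33.8 ± 19.6 and 3.02 ± 8.55 CPM and 96.6 ± 94.6 and 7.62 ± 11.7 CPM. HMMR, a spindle assembly factor, had means of 17.5 and 1.26 CPM for kit #634413 and of 138 and 0 CPM for kit #634444, where it had counts in 4 of 8 high wells. CENPE, the motor that moves chromosomes to the spindle equator, had means of 46.7 ± 48.3 and 0.827 ± 1.55 CPM and of 215 ± 273 and 3.47 ± 6.67 CPM. CIT, the citron kinase of the midbody, had means of 185 and 17.4 CPM and of 168 and 34.5 CPM. The tubulin genes TUBA1B and TUBA1C, which share long stretches of sequence and are uncertain for that reason, were at log2 ratios of 0.94 and 0.72.

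Kinetochore and checkpoint genes were higher for 14 of 19 measured members, with a median log2 ratio of 2.85. NUF2, part of the NDC80 complex that binds microtubules, was at 0 in all 16 low wells and had means of 36.9 ± 53.6 and 49.3 ± 79.1 CPM in the high groups. With the low groups set to a floor of 3 counts over the group, the log2 ratio was 6.45 and 6.41, values that depend on the floor. It had counts in 5 of 7 and 4 of 8 high wells, so the high wells were mixed for it as well. BUB1B, the checkpoint kinase BubR1, had means of 55.2 and 23.4 CPM and of 73.8 and 2.86 CPM. BUB3, a checkpoint protein with other roles, was at log2 ratios of 0.42 and 0.46 for the kits and ZWILCH at 0.49 and −0.35. The list's median was the same, 2.85, over all 27 members with counts.

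Mitotic kinases and cyclins were higher for 5 of 13 measured members, which were AURKB, CCNB2, NEK2, CCNB1 and PLK1. The median log2 ratio was 1.15 over these 13 and 3.33 over all 17 members with counts, of which 9 were past 2-fold. CCNB1, the cyclin B1 partner of CDK1, ranged over 0, 67.3 and 101 CPM in the high and 0, 2.05 and 25.2 CPM in the low group for kit #634413 and over 0, 51.4 and 766 CPM and 0, 5.84 and 25.2 CPM for kit #634444. PLK1, a kinase of mitotic entry and spindle assembly, had means of 12.6 and 2.83 CPM and of 98.8 and 4.38 CPM. Both genes were far higher in the top wells of kit #634444 than in any well of kit #634413. WEE1, the kinase that holds CDK1 back, had means of 97.9 and 80.6 CPM and of 65.9 and 49.9 CPM and did not pass the rule. Members whose mean was under 10 CPM, such as CDC25C, were not measured.

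Genes of anaphase and cohesion were higher for 4 of 10 measured members, which were UBE2C, CDCA5, CDC20 and CDCA2. UBE2C, the ubiquitin carrier of the anaphase-promoting complex, had means of 22.4 and 1.51 CPM and of 61.7 and 0 CPM. CDC20, an activator of that complex, had means of 14.8 and 1.38 CPM and of 29.3 and 0.764 CPM. FBXO5, an inhibitor of the complex, went in opposite directions for the kits, with means of 36.4 and 16.9 CPM and of 13.4 and 27.4 CPM. The list's median log2 ratio was 1.35, and 1.57 over all 12 members with counts.

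Condensin and mitotic chromatin genes were higher for 8 of 14 measured members, all 14 had a ratio above 1 for both kits, and the median log2 ratio was 1.35. NCAPH, the kleisin subunit of condensin I, was at 0 in all 16 low wells and had counts in 5 of 7 and 5 of 8 high wells, with means of 30.9 ± 29.7 and 28.1 ± 34.3 CPM. Its log2 ratio was 6.19 and 5.60 against the floor of 3 counts over the group, and depends on that floor. SMC4, the ATPase subunit shared by both condensins, was counted in all wells of both groups, with a median well of 520 against 38.3 CPM and of 302 against 98.5 CPM. Its means of 391 ± 243 and 80.3 ± 105 CPM and of 369 ± 339 and 103 ± 46.2 CPM show that low wells held SMC4 RNA too. LBR, the lamin B receptor of the nuclear envelope, was at a log2 ratio of 0.17.

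Genes of DNA replication and nucleotide synthesis were also higher in part. Of 50 measured members 15 were higher and 0 lower, 43 had a ratio above 1 for both kits, and the median log2 ratio was 0.998 (0.95 and 0.87), or 1.02 over all 55 members with counts. This count moved with the processing. It was 29 of 50 with the score taken as the mean of log2(TPM + 1), 28 of 53 with the 5 top against the 5 bottom wells of each kit, 26 of 50 with the median over wells, 25 of 52 in wells of at least 500000 counts and 23 of 50 with one split over both kits. It was 10 of 50 with gene-level TPM or with counts summed over wells, and 11 without well 20 of kit #634444. The sum over the list ranged over 2287, 4163 and 8902 CPM in the high and 873, 1194 and 6573 CPM in the low group for kit #634413 and over 836, 2787 and 5780 CPM and 715, 1440 and 3764 CPM for kit #634444, so the groups overlapped.

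RRM2, the subunit of ribonucleotide reductase whose level follows S phase, had the largest ratio of the list. It ranged over 0, 55.1 and 661 CPM in the high and 0, 0 and 14.2 CPM in the low group for kit #634413 and over 3.04, 15.6 and 231 CPM and 0, 0 and 9.28 CPM for kit #634444. Its counts summed to 1147 (95% Poisson interval 1082 to 1215) and 39 (27.7 to 53.3) and to 792 (738 to 849) and 5 (1.62 to 11.7). EXO1, a nuclease of DNA repair, had means of 86.1 and 7.78 CPM and of 39.4 and 5.26 CPM. DTL, which targets CDT1 for destruction, had means of 66.4 and 25.8 CPM and of 43.1 and 3.61 CPM. FANCI, of the Fanconi repair pathway, was counted in all 15 high wells with means of 185 ± 115 and 42.1 ± 65.7 CPM and of 120 ± 93.2 and 38 ± 20.4 CPM.

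Genes of the replication machinery itself were mixed. MCM10 and CDC45, which act in the activation of the helicase, were higher, with means of 70.8 and 14.2 CPM and of 23.2 and 7.02 CPM for MCM10 and of 21.3 and 6.95 CPM and of 13.8 and 0 CPM for CDC45. MCM2, PCNA and DNMT1 did not pass the 2-fold rule. MCM2, a subunit of the replicative helicase, had means of 134 ± 145 and 98.6 ± 152 CPM and of 95.4 ± 104 and 71.1 ± 54.7 CPM. PCNA, the sliding clamp, had means of 113 and 59.1 CPM and of 52.6 and 45.4 CPM. DNMT1, which copies DNA methylation, had means of 435 and 301 CPM and of 277 and 239 CPM. For MCM2, PCNA and DNMT1 the difference between groups was smaller than the SD over wells. ORC1 and PRIM2 were at log2 ratios of −0.31 and −0.55.

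Single wells carried replication and mitosis RNA in different proportions. Well 2 of kit #634413 had the highest replication sum at 8902 CPM with a mitosis sum of 9152 CPM, while wells 4 and 19 of kit #634444 had mitosis sums of 22911 and 18474 CPM with replication sums of 3861 and 2403 CPM. Wells 7 and 14 of kit #634413, both in the low group, had replication sums of 6573 and 4562 CPM, above those of 6 and 5 of the 7 high wells of that kit. The mitosis sum ranged over 1615, 7950 and 9998 CPM in the high and 1473, 2109 and 4521 CPM in the low group for kit #634413 and over 1701, 4081 and 22911 CPM and 1575, 2224 and 3955 CPM for kit #634444. The sums of 7 of 15 high wells lay within the range of the low group of their kit, which were wells 3, 17 and 20 of kit #634413 and wells 3, 7, 10 and 13 of kit #634444. Across wells, Spearman's rho between the score and the replication sum was 0.67 (n = 15) and 0.54 (n = 16), and both come from the same libraries.

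**Figure D3:**
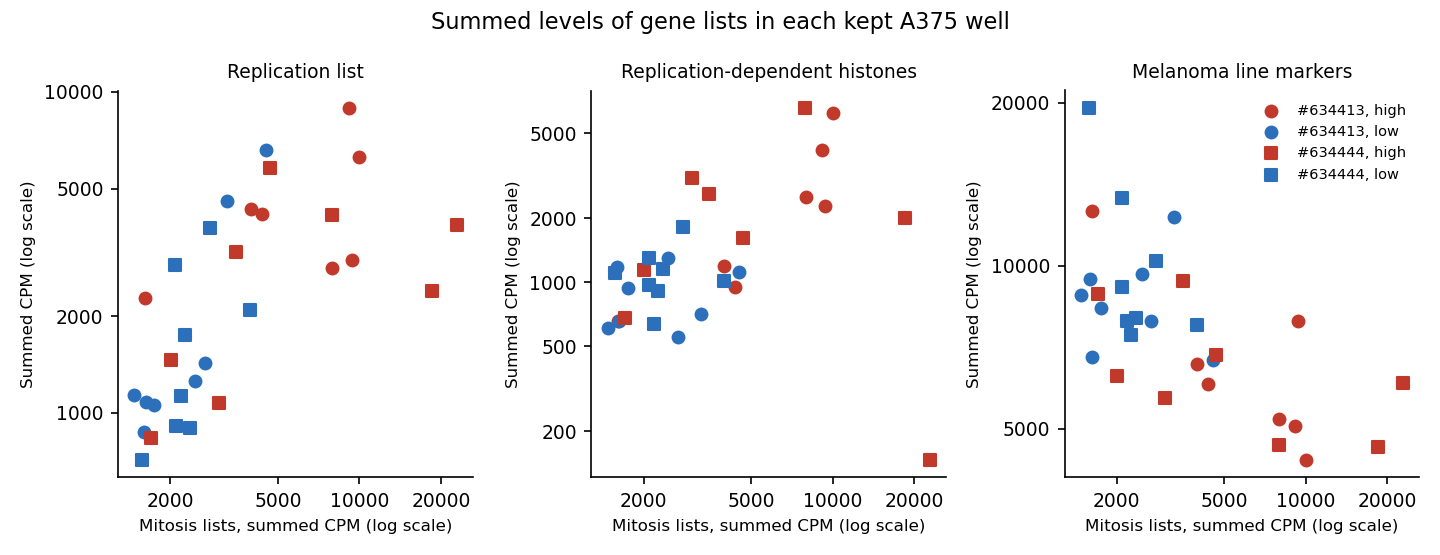
Summed CPM of the replication list (left), the replication-dependent histone genes (middle) and the melanoma line markers (right) against the summed CPM of the mitosis lists, all axes on a log scale, for each kept A375 well (circles kit #634413, squares kit #634444, red high group, blue low group). Well 4 of kit #634444 sits at the far right of the middle panel with 147 CPM of histone RNA, and the marker sum is highest, 19540 CPM, in a low well.

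Replication-dependent histone genes were higher for 17 of 38 measured members of 68, with a median log2 ratio of 1.40 (1.73 and 1.03) and of 1.45 over the 62 members with counts. Their sum ranged over 655, 2282 and 6208 CPM in the high and 553, 826 and 1294 CPM in the low group for kit #634413 and over 147, 1803 and 6568 CPM and 641, 1064 and 1821 CPM for kit #634444. Wells 21 of both kits held the most, and leaving out well 21 of kit #634444 took the count of higher histone genes from 17 to 9. H1-5, a linker histone, had means of 70.2 and 3.55 CPM and of 37.1 and 0.394 CPM, and H3C2, a histone H3 gene, of 110 and 11.4 CPM and of 96.6 and 13 CPM. The lowest sum of all kept A375 wells, 147 CPM, was in well 4 of kit #634444, the well with the highest score and mitosis sum. Histone genes are near copies of each other (H3C14 and H3C15 had identical values), so the split of counts among them is uncertain.

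Regulators of cell cycle transcription, a list that holds both activators and repressors, were higher for 4 of 21 measured members. These were MYBL2, FOXM1, E2F1 and LIN9. FOXM1, an activator of G2 and M genes, ranged over 0, 50.9 and 237 CPM in the high and 0, 0 and 12.1 CPM in the low group for kit #634413 and over 0, 23.4 and 313 CPM and 0, 0.427 and 12.6 CPM for kit #634444. MYBL2, which codes for B-MYB, had means of 55.1 and 0 CPM and of 38 and 1.18 CPM, and was counted in 1 of 16 low wells. E2F1 had means of 20.6 and 5.78 CPM and of 25.1 and 1.97 CPM. LIN9, of the MuvB core shared by DREAM and the B-MYB complex, was just past the rule for kit #634413, with 24.9 and 12.4 CPM, and had 25.2 and 2.46 CPM for kit #634444. The list's median log2 ratio was 0.30, and LIN52, another MuvB subunit, was at −0.21 and −2.18 for the kits.

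**Figure D4:**
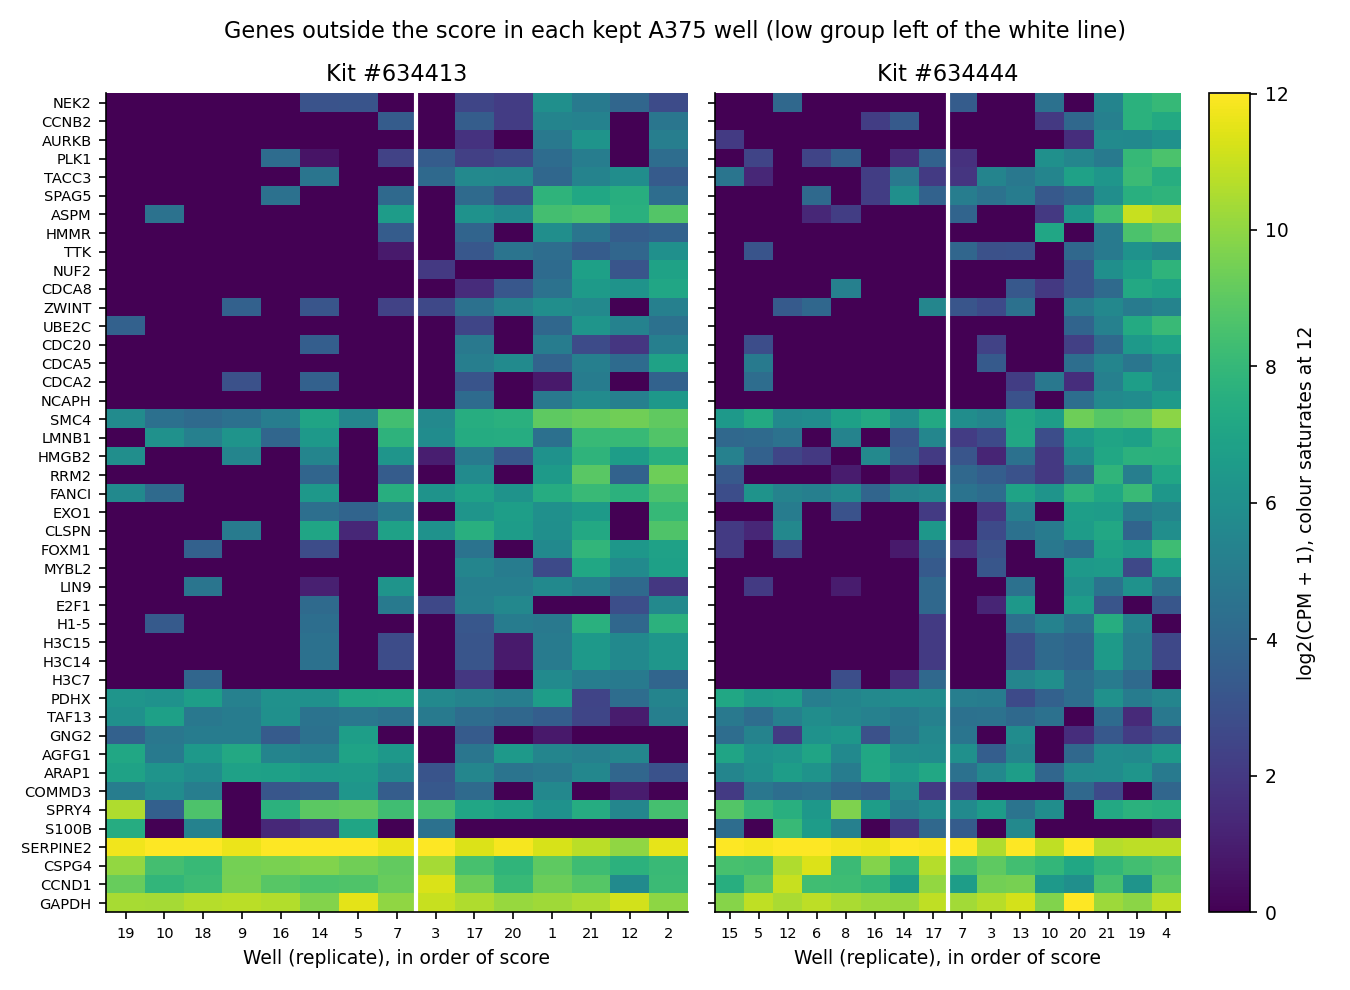
Level of 44 genes outside the score in each kept A375 well as log2(CPM + 1), with colour saturating at 12, wells in order of score and the low group left of the white line. Mitosis genes such as NUF2 and NCAPH are at 0 in every low well, while SMC4, CSPG4 and SERPINE2 have counts in every well.

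Genes that start the cycle or hold it back had no measured member past the rule. Of the G1 cyclins and CDK inhibitors, 0 of 10 measured genes were higher or lower, with a median log2 ratio of −0.24 (−0.14 and −0.33). Over all measured genes the shares were 2.12% and 1.28%, so few calls were to be found among 10 genes. Over the 16 members with counts, 2 were past 2-fold higher and 1 lower, with a median of −0.12. CDKN3, under the limit of 10 CPM, had means of 8.43 and 21.9 CPM in the high groups and was at 0 in every low well. CCND1, which codes for cyclin D1, ranged over 52, 457 and 2585 CPM in the high and 240, 444 and 748 CPM in the low group for kit #634413 and over 62, 235 and 735 CPM and 103, 315 and 2043 CPM for kit #634444. The mean of CCND1 was thus higher in the high group for one kit and lower for the other, and well 3 of kit #634413 gave the top value. CDKN1A, the p53 target that codes for p21, had medians of 9.96 and 0 CPM and of 5.44 and 13.3 CPM, and reached 625.2 CPM in 1 low well, well 6 of kit #634444. CDKN1B, which codes for p27, had means of 19.2 and 24 CPM and of 35.4 and 32.6 CPM.

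Antiproliferative and p53 response genes, with 0 of 20 measured members past the rule, had a median log2 ratio of −0.38 (−0.09 and −0.35). With shares of 2.12% and 1.28% over all measured genes, few calls were to be found among 20 genes. Over all 29 members with counts the median was also −0.38, and 1 was past 2-fold lower. Without well 6 of kit #634444 the median over measured members was −0.07, and with the median in place of the mean over wells it was 0.31. MDM2, the p53 target that degrades p53, had median wells of 188 and 167 CPM and of 180 and 165 CPM, and was at 1382 CPM in the same well 6. The direction of this list therefore changed with how the wells were averaged.

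Genes downstream of ERK signalling, which A375 cells drive through mutant BRAF, had a median log2 ratio of −0.01 over 25 measured members. SPRY4, a feedback inhibitor of the pathway, was lower, with means of 175 ± 123 and 436 ± 482 CPM and of 95.2 ± 74.6 and 245 ± 263 CPM and log2 ratios of −1.32 and −1.37. The low wells of SPRY4 reached 1520 and 809 CPM and the groups overlapped. DUSP6, a phosphatase of ERK, had means of 215 and 174 CPM and of 115 and 157 CPM, in opposite directions for the kits.

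Melanoma line markers had 1 measured member past the rule, which was lower in high cells. The list's median log2 ratio was −0.33 (−0.13 and −0.66) over 10 measured members and −0.00 over all 15. S100B, a calcium-binding protein of neural crest cells, was lower, with means of 2.99 ± 7.91 and 43.5 ± 69.4 CPM and of 7.42 ± 17 and 55 ± 92 CPM, and was counted in 4 of 15 high and 11 of 16 low wells. SERPINE2, a secreted protease inhibitor, had means of 3114 ± 2017 and 4697 ± 1603 CPM and of 2856 ± 1615 and 5124 ± 2590 CPM, which differ by less than 2-fold, and median wells of 2654 and 4584 CPM and of 1827 and 4121 CPM. CSPG4, a melanoma surface proteoglycan, had means of 461 and 652 CPM and of 320 and 989 CPM. VIM, the intermediate filament vimentin, had slightly larger means in the high group, 972 and 916 CPM and 1334 and 1030 CPM. AXL, a receptor kinase, and S100A4, a calcium-binding protein, went in opposite directions for the kits, with 155 and 82.8 CPM and 138 and 209 CPM for AXL and 40.8 and 11 CPM and 35.2 and 58.2 CPM for S100A4. The sum of the list ranged over 4378, 6053 and 12629 CPM in the high and 6687, 8590 and 12272 CPM in the low group for kit #634413, and over 4626, 6157 and 9381 CPM and 7458, 8559 and 19540 CPM for kit #634444. Its means were 6830 and 8738 CPM and 6545 and 10413 CPM, and the means of SERPINE2 above are a large part of them and of their difference. Across wells, Spearman's rho between the score and this sum was −0.62 (n = 15) and −0.66 (n = 16).

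Genes of growth and metabolism had no measured member past the rule. Over all measured genes the shares were 2.12% higher and 1.28% lower. Among genes with a mean of at least 50 CPM they were 0.857% and 0.308%. Few calls were therefore to be found in lists of this size, and the counts of 0 are descriptions only. Cytosolic ribosomal protein genes had 0 of 79 measured members past the rule and a median log2 ratio of 0.03, although processed pseudogenes make their single values uncertain. Nuclear-encoded genes of oxidative phosphorylation had 0 of 74 and a median of −0.06, and stress and chaperone genes had 0 of 17 and a median of −0.13. Glycolysis enzymes had 0 of 19 and medians of −0.02 and 0.47 for the kits, with 1 high well, well 20 of kit #634444, at a sum of 17131 CPM.

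Among genes outside the lists, the 15 with the largest and the 15 with the smallest difference of mean log2(CPM + 1) relative to the spread over wells were taken, by the smaller of the kits' values. Of the first, 10 were past the 2-fold rule, and of the second, 6. TROAP (chr12:49323236-49331731, plus strand), a spindle-associated protein, was at 0 in all low wells and had means of 17.7 ± 24.8 and 34.6 ± 48.5 CPM in the high groups. PBK, a mitotic kinase, had means of 33.4 and 21.2 CPM and was at 0 in all low wells. RCC1 (chr1:28505943-28539300, plus strand), the exchange factor of Ran on chromatin, ranged over 43.1, 63.6 and 102 CPM in the high and 1.38, 17.2 and 79.7 CPM in the low group for kit #634413 and over 47.1, 85 and 139 CPM and 22, 35.7 and 64.8 CPM for kit #634444. RCC1 was counted in all 31 wells, and its groups overlapped in part.

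Among the genes with smaller levels in high cells, PDHX (chr11:34915829-35020591, plus strand), the E3-binding protein of pyruvate dehydrogenase, had means of 41.3 ± 30.2 and 85.5 ± 34.8 CPM and of 30.5 ± 19.4 and 70.6 ± 36.1 CPM. TAF13 (chr1:109062496-109076012, minus strand), a subunit of TFIID, had means of 16.4 ± 12.5 and 46.3 ± 32.4 CPM and of 15.9 ± 9.85 and 36.3 ± 11.8 CPM. GNG2, a G protein gamma subunit, had means of 1.54 and 29.9 CPM and of 12.6 and 36.5 CPM. Coordinates are those of GENCODE v44 on GRCh38. Several genes of known mitotic or centrosomal role stood among the 15 largest without passing the rule, such as CENPJ, with log2 ratios of 0.92 and 1.37.

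Jurkat wells were split by the same score to set their values beside those of A375 wells. Under the same limits 36 Jurkat wells were kept, 9 high and 9 low for each kit, and 301 of 10213 measured genes (2.95%) were higher and 307 (3.01%) lower. Their median scores were 291 and 272 TPM against 35.6 and 27.9 TPM in A375 wells, and 9 of 15 and 10 of 16 A375 wells scored below the lowest Jurkat well of their kit. Mitosis genes were higher for 52 of 99 measured members in Jurkat wells, with a median log2 ratio of 1.52, beside 53 of 83 and 2.01 in A375 wells. Replication genes were higher for 0 of 55 members in Jurkat wells, with a median of −0.05, beside 15 of 50 and 0.998 in A375 wells. Histone genes were higher for 50 of 59 members in Jurkat wells by mean CPM, with a median of 2.01, but the wells overlapped widely. Their sum ranged over 53.1, 22894 and 44183 CPM in the high and 1846, 4101 and 17513 CPM in the low group for kit #634413. For kit #634444 it ranged over 3092, 26931 and 52568 CPM and 1459, 4365 and 29844 CPM. Across Jurkat wells, Spearman's rho between the score and this sum was −0.02 and 0.48 (n = 18 each), beside 0.76 and 0.34 in A375 wells. With 1 sample of cells per line the difference between lines was not tested, and Jurkat cells were sorted into lysis solution and A375 cells into PBS.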

How the data were processed

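Single sorted A375 and Jurkat cells were profiled by total RNA-seq, 1 cell per sample. The authors deposited, per well, a kallisto table of estimated counts and TPM for 200471 targets (hg38 transcripts of Ensembl 91, ERCC and other spikes, an rDNA unit), and the submitters' processing notes name STAR 2.5.3 and kallisto 0.43.1. Replicates were not pooled.

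From these, transcript values were summed to 58388 genes through GENCODE v44, in which 195850 transcripts were found and 4356 were not. CPM used as total the gene counts without rDNA, rRNA, spikes, the 404 copies of mitochondrial genes and the score genes. Ratios are of mean CPM over wells, each kit apart, and the log2 ratio over both is the mean of the kits. A group at 0 in all wells was set to a floor of 3 counts over the group. Depth is the total estimated count. Genes were named if they were in the score, in a list (the extremes and those described by role) or among the 15 largest and smallest standardised differences with a pseudocount of 1. The members and lists were chosen with earlier results of these data known. The promoters are from RefSeq. A simulation with known changes was used to check the scripts.

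Alternatives set in advance changed the depth and mitochondrial limits, the median well, a split into the top, middle and bottom wells, TPM, the median over wells, the level filter, edgeR's TMM scaling and single wells. A split at 100 TPM and settings without the top, the middle or the rRNA-rich wells were added after seeing the data. Python 3.11.15, pandas 2.3.3, numpy 2.4.6, scipy 1.17.1, matplotlib 3.10.9, R 4.3.3, edgeR 4.0.16 and limma 3.58.1 were used. Counts of 9 shallow wells and 2 wells with many mitochondrial copies were left out. Intervals are exact Poisson intervals at 95%.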

Additional observations from a re-analysis of the deposited data

Results flagged for a closer look

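Total counts, the rRNA share, the genes detected in thinned wells, the sum over all mitosis lists and the sums of 11 other lists were checked in each group and kit, which made 60 sets of wells. The T cell markers and the single mitosis lists were not checked. A well was taken as apart where its gap to the nearest well, divided by the range of the set, was above Dixon's 95% critical value. That limit sets apart about 1 in 20 sets of independent, normally distributed values, and the sums of single cells are skewed and share wells, so the number found is not read against it. A well stood apart in 11 sets, each given with the median of its group.

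In kit #634413, high well 3 held 3296 CPM of G1 cyclins and CDK inhibitors (median 1135 CPM) and 12629 CPM of melanoma line markers (median 6053 CPM). High well 12 held 68003 CPM of cytosolic ribosomal protein genes (median 45249 CPM) and 7075 CPM of oxidative phosphorylation genes (median 4691 CPM).

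In kit #634444, low well 6 held 4317 CPM of antiproliferative and p53 response genes (median 1414 CPM) and 5867 CPM of immediate early and ERK output genes (median 3229 CPM). Low well 5 held 10127 CPM of stress and chaperone genes (median 6136 CPM) and 74895 CPM of ribosomal protein genes (median 49729 CPM). High well 20 held 17131 CPM of glycolysis enzymes (median 5620 CPM), high well 21 held 6568 CPM of replication-dependent histone genes (median 1803 CPM), and high well 10 had 27.5% of its counts on rRNA (median 9.70%).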

How the results depend on the processing

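The mitosis, replication, histone and G1 values kept their direction under every setting tried. The antiproliferative list went from −0.38 to 0.31 with the median over wells, and the ribosomal protein median, 0.03, was −0.08 with the 5 top against the 5 bottom wells of each kit, −0.01 with the split at 100 TPM, −0.08 without wells from 20 to 100 TPM and −0.02 without well 13 of kit #634444. Counts moved as follows, against 235 higher (2.12%) and 142 lower (1.28%) of 11071 genes. The number of genes measured differed between some settings, so shares are given too. The 5 top against the 5 bottom wells of each kit gave 504 higher (4.54%) and 304 lower (2.74%) of 11094 genes. With these wells 9 of the 11094 genes were without overlap (TACC3, POLD1, KIF20B, FANCI, NCAPG2, TYMS, H3C14, H3C15 and 1 unnamed gene). Gene-level TPM gave 258 lower (2.33%), and the median over wells gave 652 higher (5.89%) and 223 lower (2.01%), each of 11071 genes. A filter at 5 CPM gave 437 higher (3.22%) and 290 lower (2.13%) of 13585 genes. At 50 CPM there were 39 (0.857%) and 14 (0.308%) of 4549 genes. With no filter beyond 1 count in 3 wells there were 1490 (6.33%) and 1196 (5.08%) of 23525 genes. The split at 100 TPM gave 222 lower (2.01%) and 1 gene without overlap (NCAPG2), of 11071 genes. Leaving out wells from 20 to 100 TPM gave 509 higher (4.58%), 261 lower (2.35%) and 8 without overlap, of 11116 genes. Leaving out single wells gave 216 to 281 higher, 121 to 172 lower and 0 without overlap, and medians of 1.73 to 2.41 for mitosis, 0.76 to 1.09 for replication, −0.39 to −0.07 for the antiproliferative list, −0.37 to −0.13 for the G1 list and −0.02 to 0.08 for ribosomal proteins, with 1.03 to 1.36 for the log2 ratio of histone sums, 0.25 to 0.54 for total counts and 250.5 to 439 for genes detected. No paired analysis was possible because replicates were numbered in accession order and no test was made. The cause of these moves was not tested. Low counts per cell limit single genes: a gene at 0 in a well is not shown to be absent, and the wells of a group are cells of an unknown number of cultures.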

Other observations

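Some abundant genes outside the naming rule were picked out after their values were seen. They are single values and stand for no group of genes. Of these, 5 were lower in high cells. HAPLN1, a hyaluronan link protein, had means of 61 and 356 CPM in the high and low group for kit #634413 and of 92 and 246 CPM for kit #634444. HMCN1, a matrix fibulin, had 68.2 and 413 CPM and 52.1 and 147 CPM, and LOXL4, a lysyl oxidase that crosslinks collagen, had 106 and 414 CPM and 43.6 and 173 CPM. ST6GAL1, a sialyltransferase, had 62.1 and 223 CPM and 41.7 and 123 CPM, and TFAP2B, a factor of neural crest cells, had 56.2 and 205 CPM and 60.4 and 122 CPM. FN1, which codes for fibronectin, was higher in high cells, and its mean in the high group of kit #634444 rested on 1 well at 4636 CPM.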
